A study of Mus musculus with 6 samples.

Results

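Genes of the red cell, 10 in all with 4 adult globins and 6 components of the red cell membrane, were followed in bone marrow stem and progenitor cells of 6 mice. They were chosen by name from a table of 45706 genes, with no threshold on a measured value but with earlier results of these data known: the globins Hba-a1, Hba-a2, Hbb-bt and Hbb-bs, and the membrane genes Slc4a1, Rhag, Ermap, Ank1, Aqp1 and Icam4. RNA was sequenced from the LSK compartment (Lin-, Sca-1+, c-Kit+), the sorted fraction of bone marrow that holds hematopoietic stem cells and multipotent progenitors, with 1 library per mouse. The comparison asks how these genes respond to induced loss of Setd1b, an enzyme that methylates lysine 4 of histone H3, and which of them are read as progenitor transcripts and which could be carried over in red cells.

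The control mice (Ctrl, n = 3; AI03, AI54 and AI56) were Setd1b HET (FD/+; RC/+) and the knockout mice (cKO, n = 3; AI02, AI55 and AH74) were Setd1b HOM (FD/FD; RC/+). FD is the conditional allele, in which loxP sites flank exon 5, and RC is Rosa26-Cre-ERT2, a Cre recombinase that is made in nearly all tissues and becomes active with tamoxifen. All 6 mice carried RC and received tamoxifen, so the controls had also recombined 1 Setd1b allele and were not wild type, and the knockout was not confined to blood cells. All were C57BL/6 males of 16 weeks, except AH74 of 17 weeks, and each received 4.5 mg of tamoxifen per day by gavage for 4 days and, after a pause of 3 days, for 2 more days, as the labels give the scheme. The dose count in the study's methods differs from that scheme. Bone marrow was taken 3 days after the last dose, and the LSK cells were sorted from cells depleted of lineage-positive cells, with an antibody cocktail that included TER-119, a surface marker of maturing red cells.

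Red cells develop from progenitors that first switch on the erythroid transcription factors and some membrane and metabolic genes, and only later, as erythroblasts and reticulocytes, fill with globin mRNA. The alpha and beta globin chains form hemoglobin; the anion exchanger Slc4a1 (band 3), the ankyrin Ank1 that ties it to the spectrin skeleton, the Rhesus-associated glycoprotein Rhag, the water channel Aqp1, and the blood group proteins Ermap and Icam4 belong to the membrane. Reticulocytes and platelets have no nucleus but keep RNA, so a sorted fraction of nucleated progenitors can contain red cell transcripts that were not made in it.

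The adult globins are near-identical gene pairs, which bears on every globin count, because only uniquely aligned reads were counted. The coding sequences of Hba-a1 and Hba-a2, both of 429 bases, differed at 1 base, C381T (Hba-a1 base first, counted from the A of the start codon), and those of Hbb-bt and Hbb-bs, both of 444 bases, differed at 1 base, T417C (Hbb-bt base first). The stretches of 75 bases, the length of 1 read, around those bases are shown to make this visible, from the GENCODE M21 transcripts of GRCm38, with the differing base in capitals.
Hba-a1: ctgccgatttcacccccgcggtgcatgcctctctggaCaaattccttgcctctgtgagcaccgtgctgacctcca
Hba-a2: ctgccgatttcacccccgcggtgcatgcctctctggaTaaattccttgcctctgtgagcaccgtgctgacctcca
Hbb-bt: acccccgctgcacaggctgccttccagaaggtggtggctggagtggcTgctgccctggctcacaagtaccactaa
Hbb-bs: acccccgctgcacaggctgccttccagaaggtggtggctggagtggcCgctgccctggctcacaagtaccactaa
Of the 355 possible stretches of 75 bases in the alpha globin coding sequence, 306 were the same in both copies, and 342 of 370 were the same in the beta pair. Over whole transcripts, untranslated parts included, 32.1% of the stretches of Hba-a1, 15.4% of Hba-a2, 43.4% of Hbb-bt and 48.5% of Hbb-bs occurred in no other annotated transcript, against 100% for Slc4a1, Rhag, Ermap and Aqp1 and 96% for Ank1. The globin counts below are therefore counts of the distinguishable part of each transcript. Icam4 is a different case: 13.3% of its stretches lie outside Gm47079, which GENCODE M21 places at the same locus on the opposite strand. Among the genes that were counted, none shared exon bases with Icam4, so its counts were not limited to that part. Whether the counting used strand is not given in the sources used here.

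The bases before the start sites of Ermap and Rhag, which fell furthest, and of Icam4 and Hbb-bt, which did not pass the test, are shown next. RefSeq promoter sequences (GRCm38.p6) were found for 8 of the 10 members, all but Slc4a1 and Ank1. The 250 bases before the start of Ermap (chr4:119189996-119190245, minus strand), Rhag (chr17:40810899-40811148, plus strand), Icam4 (chr9:21029182-21029431, plus strand) and Hbb-bt (chr7:103813924-103814173, minus strand) are printed 5′ to 3′ along the gene's strand. Capitals mark 2 short motifs on either strand, GATAA (reverse TTATC), of the kind GATA factors bind, and CACCC (reverse GGGTG), of the kind Krüppel-like factors bind. Matches of different motifs may share bases, and a match is a match of letters only.
Ermap: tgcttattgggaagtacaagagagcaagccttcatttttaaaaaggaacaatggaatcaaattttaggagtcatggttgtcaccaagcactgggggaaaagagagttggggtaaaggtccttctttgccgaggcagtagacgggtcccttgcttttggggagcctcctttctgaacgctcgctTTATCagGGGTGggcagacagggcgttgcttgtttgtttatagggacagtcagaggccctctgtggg
Rhag: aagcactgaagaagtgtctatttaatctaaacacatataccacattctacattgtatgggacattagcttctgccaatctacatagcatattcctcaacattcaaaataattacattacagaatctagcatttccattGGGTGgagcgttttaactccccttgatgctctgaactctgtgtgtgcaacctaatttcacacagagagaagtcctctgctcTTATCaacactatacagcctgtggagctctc
Icam4: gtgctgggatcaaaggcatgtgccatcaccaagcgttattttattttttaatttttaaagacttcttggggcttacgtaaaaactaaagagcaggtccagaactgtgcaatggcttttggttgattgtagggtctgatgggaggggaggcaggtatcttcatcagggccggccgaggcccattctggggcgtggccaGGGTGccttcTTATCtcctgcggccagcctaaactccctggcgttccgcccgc
Hbb-bt: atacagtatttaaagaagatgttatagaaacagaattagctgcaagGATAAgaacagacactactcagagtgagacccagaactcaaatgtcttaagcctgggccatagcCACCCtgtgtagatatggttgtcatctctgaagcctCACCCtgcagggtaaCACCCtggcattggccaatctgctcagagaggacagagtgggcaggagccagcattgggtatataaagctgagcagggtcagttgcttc
GATAA was present once in each of these 4 promoters, with its first letter 67 bases before the start in Ermap, 31 in Rhag, 43 in Icam4 and 204 in Hbb-bt. Among the 8 member promoters 7 held GATAA, all but that of Aqp1, against 22.6% of 32851 RefSeq promoters of the same length. CACCC was in all 8, against 52% of all promoters, CCAAT (reverse ATTGG) in 6 of 8, against 33.8%, and TATAA (reverse TTATA) in 5 of 8, against 22.8%. The promoters of Hba-a1 and Hba-a2 are near-identical copies, with GATAA at 182 and 185 bases, so they are not separate cases in these counts. Each of the 4 globin promoters held TATAA between 27 and 30 bases before the start, and among the 4 membrane genes with a sequence Ermap alone did, at 30 bases.

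The libraries held 13003573 to 21277519 counted reads, with TMM scaling factors (edgeR's correction for library composition) of 0.945 to 1.03, and values are given as counts-per-million on that scale (CPM). The genes that define the gate were present in every library: Kit lay between 395 and 514 CPM, and the summed CPM of 8 gate genes was 1537 ± 77.7 in Ctrl and 1486 ± 45.3 in cKO (SD, n = 3 each here and throughout). Setd1b itself ran against the label, with 213 ± 16.2 CPM in Ctrl and 292 ± 21.1 CPM in the libraries labelled cKO (log2 fold change 0.46 ± 0.073 SE; adjusted p = 0.0015, edgeR quasi-likelihood test). The values are totals per gene and do not show whether exon 5 was spliced into the transcript, so they do not check the deletion. The study itself reported complete recombination by PCR in sorted stem and progenitor cells. It also reported loss of Setd1b mRNA by qRT-PCR in sorted multipotent progenitors. Both came from mice taken weeks after tamoxifen, not from these libraries. Every direction below is that of libraries labelled cKO. Of the 15184 genes with enough reads to test, 3.79% fell and 3.88% rose in cKO at the threshold used here, an adjusted p under 0.05. The median log2 fold change over these genes was 0.00023.

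Of the 10 genes 4 fell in the libraries labelled cKO and all 4 belong to the membrane: Ermap by 8.08-fold, Rhag by 7.68-fold, Ank1 by 4.05-fold and Aqp1 by 2.47-fold. None rose, by edgeR, by DESeq2 or at an unadjusted p under 0.05. Adult globin mRNA summed to 2.29 to 5.75 CPM over the 6 libraries and no globin passed the test, while Slc4a1, the most abundant protein of the red cell membrane, was absent but for 1 read. Enough reads for a test were found for 7 of the 10 (Hbb-bt, Hbb-bs, Rhag, Ermap, Ank1, Aqp1 and Icam4). The 4 that fell compare with 3.79% of all genes tested, and the absence of a rise with 3.88%. Rhag passed the filter on low counts through its 3 control libraries, since only 1 cKO library reached the filter's minimum. Every adjusted p given here comes from edgeR's quasi-likelihood fit over the 15184 genes, adjusted by the Benjamini-Hochberg method. The same 4 passed, and no other member did, at an adjusted p under 0.01 (1.79% of all genes lower, 1.59% higher) and with DESeq2 at 0.05 (4.21% lower, 3.8% higher). These are bulk samples, in which fewer cells that express a gene and less RNA per cell cannot be told apart. An exact permutation test of 3 against 3 mice cannot give a p below 0.1.

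**Figure D1:**
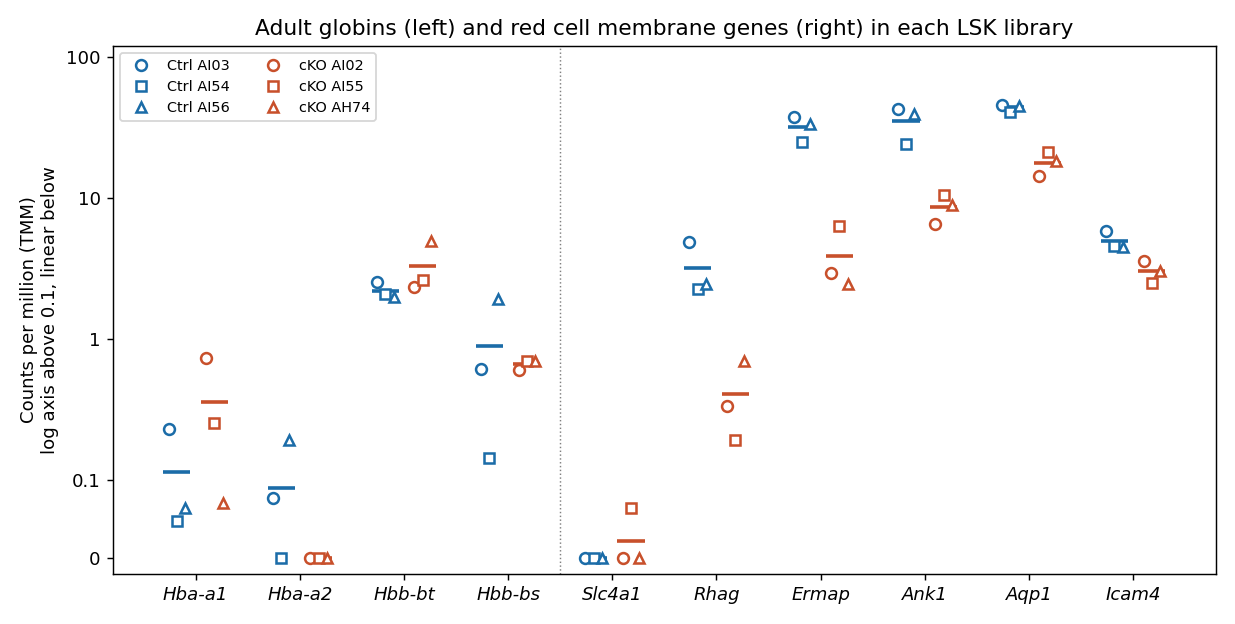
CPM (vertical axis, TMM-scaled, logarithmic above 0.1 and linear below) of each of the 10 genes in each of the 6 libraries, Ctrl in blue and libraries labelled cKO in orange, with a symbol per mouse and a bar at the group mean. Ermap, Rhag, Ank1, Aqp1 and Icam4 have all 3 Ctrl libraries above all 3 cKO libraries, the 4 globins overlap between the groups, and Slc4a1 is at 0 in 5 libraries.

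Ermap (ENSMUSG00000028644, chr4:119175457-119190011, minus strand, GRCm38), an erythroid adhesion protein of the immunoglobulin superfamily that carries the Scianna blood group, was counted 490, 527 and 520 times in Ctrl (AI03, AI54, AI56 in this order throughout) and 44, 99 and 35 times in cKO (AI02, AI55, AH74). In CPM these were 37.5, 25.1 and 33.3 against 2.95, 6.29 and 2.455. Every cKO library was far below every Ctrl library, and the highest of them was AI55. On the log2 scale the fold change was -3.01 ± 0.25 SE (95% interval -3.55 to -2.48; adjusted p = 3.0e-06).

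Rhag (ENSMUSG00000023926, chr17:40811126-40840754, plus strand), the partner that Rh proteins need to reach the membrane and itself a channel for ammonia, was at 64, 47 and 38 reads in Ctrl and 5, 3 and 10 reads in cKO. The CPM values were 4.90, 2.24 and 2.43 in Ctrl and 0.335, 0.191 and 0.701 in cKO. The groups did not overlap, and AI03 stood above the other Ctrl mice. The log2 fold change was -2.94 ± 0.51 SE (95% interval -4.02 to -1.86; adjusted p = 0.0023), and with so few cKO reads its size is the least precise of the 4.

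Ank1 (ENSMUSG00000031543, chr8:22974844-23150497, plus strand), ankyrin-1, which links the spectrin skeleton to band 3, had 561, 507 and 612 reads in Ctrl and 98, 166 and 127 reads in cKO. The CPM values were 42.9, 24.2 and 39.2 in Ctrl and 6.57, 10.6 and 8.91 in cKO. The lowest Ctrl mouse, AI54, was still above the highest cKO mouse, AI55. Its log2 fold change was -2.02 ± 0.20 SE (95% interval -2.45 to -1.58; adjusted p = 2.2e-05). An antisense gene, Gm15816, shares 862 exon bases with Ank1 on the opposite strand and had 0 to 5 reads.

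Aqp1 (ENSMUSG00000004655, chr6:55336432-55348555, plus strand), the water channel that carries the Colton blood group, had 602, 861 and 704 reads in Ctrl and 212, 331 and 260 reads in cKO. In CPM these were 46.1, 41.0 and 45.0 against 14.2, 21.03 and 18.2. The spread within each group was small beside the gap between them. This gave a log2 fold change of -1.30 ± 0.13 SE (95% interval -1.57 to -1.03; adjusted p = 1.6e-05). Aqp1 is also made by endothelium of many tissues.

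Icam4 (ENSMUSG00000001014, chr9:21029373-21030531, plus strand), an adhesion molecule of the Landsteiner-Wiener blood group that binds integrins on macrophages, had 76, 95 and 70 reads in Ctrl and 53, 39 and 43 in cKO. In CPM these were 5.82, 4.53 and 4.48 against 3.55, 2.48 and 3.02. All 3 cKO values lay below all 3 Ctrl values, but the gap between the nearest mice, AI56 and AI02, was smaller than the range within Ctrl. The log2 fold change of -0.71 ± 0.25 SE (95% interval -1.25 to -0.16) did not pass the threshold (adjusted p = 0.109). Including Icam4, 5 of the 10 genes had cKO libraries wholly below Ctrl libraries, against 13.4% of all genes tested.

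Slc4a1 (ENSMUSG00000006574, chr11:102348824-102366203, minus strand), band 3, to which ankyrin-1 binds in the mature membrane, had 0 reads in all 3 Ctrl libraries and 0, 1 and 0 reads in cKO. A count of 0 allows up to 3 reads, or 0.141 to 0.231 CPM in the Ctrl libraries. Ank1 and Slc4a1 encode partners in the mature cell, and here 1680 reads of Ank1 stood in Ctrl beside 0 of Slc4a1.

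Among the globins Hbb-bt (ENSMUSG00000073940, chr7:103812524-103813996, minus strand), a major adult beta chain, was counted most, with 33, 44 and 31 reads in Ctrl and 35, 41 and 71 in cKO. In CPM these were 2.53, 2.10 and 1.98 against 2.35, 2.61 and 4.98. AH74 alone was clearly above the rest, and the groups overlapped. Its log2 fold change was 0.59 ± 0.34 SE (95% interval -0.13 to 1.31; adjusted p = 0.325) and was 0.17 (adjusted p = 0.851) without AH74. The interval excludes a fall of the size measured for Ermap, Rhag, Ank1 or Aqp1.

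Hbb-bs (ENSMUSG00000052305, chr7:103826534-103828096, minus strand), the other adult beta chain, had 8, 3 and 30 reads in Ctrl and 9, 11 and 10 in cKO. The CPM values were 0.612, 0.143 and 1.92 in Ctrl and 0.603, 0.699 and 0.701 in cKO. The 3 Ctrl mice spanned the cKO mice on both sides, with AI54 lowest and AI56 highest of all. The log2 fold change was -0.37 ± 0.69 SE (95% interval -1.85 to 1.10; adjusted p = 0.799), and it turned to 0.94 (adjusted p = 0.55) when AI56 was left out and to 0.37 (adjusted p = 0.54) when both beta genes were summed.

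The split between the beta pair set AI56 apart. Hbb-bt took 50.8% of the beta globin reads there (31 of 61; 95% exact binomial interval 37.7 to 63.9%) and 78.8 to 93.6% in the other 5 libraries, where the lowest interval began at 64.7%. The intervals cover counting error only, since amplified reads are not independent molecules.

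The alpha genes were close to the limit of detection. Hba-a1 (ENSMUSG00000069919, chr11:32283511-32284465, plus strand) had 3, 1 and 1 reads in Ctrl and 11, 4 and 1 in cKO, which gives 16 against 5 reads and, per read sequenced, a ratio of 3.69 with a counting interval of 1.29 to 12.9. That interval leaves out the spread between mice: 11 of the 16 cKO reads came from AI02, and AH74 was no higher than the controls. Hba-a2 (ENSMUSG00000069917, chr11:32296489-32297298, plus strand) had 1, 0 and 3 reads in Ctrl and none in cKO, at or under 3 reads in every library.

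Summed over the 4 adult globins, 45, 48 and 65 reads were counted in Ctrl and 55, 56 and 82 in cKO. As a share of all counted reads, scaled like CPM but without the TMM factor, this was 3.46 (95% exact interval 2.52 to 4.63), 2.26 (1.66 to 2.99) and 3.93 (3.03 to 5.003) in Ctrl. In cKO it was 3.79 (2.86 to 4.93), 3.67 (2.77 to 4.76) and 5.75 (4.57 to 7.14). AH74 was highest and AI54 lowest, and the other 4 libraries lay within each other's intervals.

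The 6 membrane genes together were lower in cKO, with no overlap between the groups. Their summed CPM was 137, 97.1 and 124 in Ctrl and 27.6, 40.6 and 33.3 in cKO, or 119.6 ± 20.5 against 33.8 ± 6.51. For every 100 reads of the membrane genes there were 2.51, 2.36 and 3.34 globin reads in Ctrl and 13.4, 8.76 and 17.3 in cKO. The ratio rose with the fall in its denominator, since the globin reads themselves overlapped between the groups. Set against the gate, the membrane genes gave 8.49, 6.32 and 8.52 reads per 100 reads of the gate genes in Ctrl and 1.89, 2.64 and 2.29 in cKO.

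On a scale that allows genes to be compared, CPM per kilobase of exon, the order of levels in Ctrl was Aqp1 (16.8 ± 1.01), Ermap (6.03 ± 1.19), Icam4 (5.45 ± 0.836), Hbb-bt (3.13 ± 0.406), Ank1 (2.62 ± 0.734), Rhag (1.36 ± 0.634) and Hbb-bs (1.03 ± 1.07), followed by Hba-a1 (0.140), Hba-a2 (0.134) and Slc4a1 (0). Aqp1 stood clear of all others. The ranges of mean ± SD overlapped for Ermap and Icam4, and for each neighbouring pair from Hbb-bt downward. Aqp1 was above 75.7% of the genes tested on this scale, Ermap above 48.8%, Hbb-bt above 33.5% and Hba-a1 above 1.3%. In cKO the order per kilobase became Aqp1 (6.78 ± 1.31), Hbb-bt (4.71 ± 2.07), Icam4 (3.32 ± 0.592), Hbb-bs (0.774 ± 0.0649), Ermap (0.736 ± 0.394), Ank1 (0.641 ± 0.148), Hba-a1 (0.436 ± 0.424) and Rhag (0.175 ± 0.113), with Slc4a1 and Hba-a2 at or near 0. The ranges of neighbours overlapped there too, except between Icam4 and Hbb-bs and between Rhag and Slc4a1. The level of Ermap there lay below that of Hbb-bt, from above it in Ctrl. Globin levels per kilobase rest on the distinguishable reads alone and are lower than the full levels by an amount that was not measured.

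The remaining genes of the membrane and its skeleton did not move as a block. Of 29 such genes 27 were tested, 9 fell and 4 rose, and their median log2 fold change was -0.22, beside 0.00023 for all genes tested. The 4 with the smallest adjusted p were Add2 (beta adducin, which caps actin at the skeleton; -2.49, adjusted p = 0.0017), Bcam (the Lutheran blood group protein; 1.39, adjusted p = 0.0020), Tspo2 (an erythroid translocator-type protein; -2.22, adjusted p = 0.0032) and Kel (the Kell blood group; -1.34, adjusted p = 0.0044). Add2 had 10.1, 5.96 and 10.2 CPM in Ctrl and 0.737, 3.05 and 0.772 in cKO, while Bcam had 3.83, 3.34 and 3.90 in Ctrl and 11.1, 6.54 and 11.4 in cKO. Tspo2 entered the test through its Ctrl libraries, with 1 cKO library over the filter's minimum. The groups of neither Add2 nor Bcam overlapped, and AI55 was the cKO mouse nearest to the controls in both. The count of genes that fell was 5 without AI56, without AI55 or without AH74, and the count that rose was 2 without AI03 or without AI02.

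**Figure D2:**
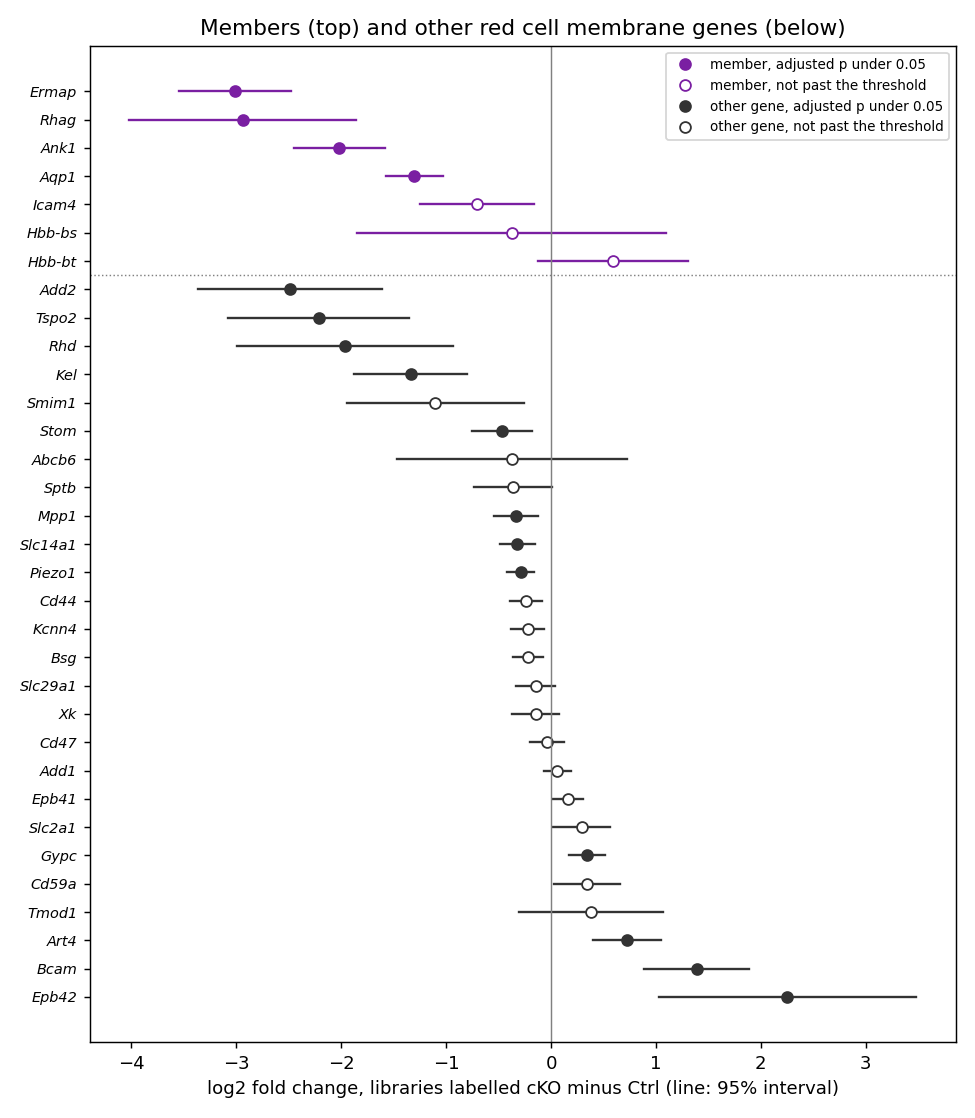
Log2 fold change of libraries labelled cKO against Ctrl (horizontal axis, point with its 95% interval) for the 7 tested globin and membrane genes in purple and the other tested red cell membrane and skeleton genes in black (1 not shown), filled where the adjusted p was under 0.05. Ermap, Rhag, Ank1 and Aqp1 lie left of -1 with intervals that stay below 0, Hbb-bt and Hbb-bs have intervals across 0, and the black genes run from -2.49 for Add2 to 2.25 for Epb42.

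Other genes of the skeleton, named here after their values were seen, differed among themselves. Sptb, erythroid beta spectrin, had a log2 fold change of -0.37 and did not pass the test (95% interval -0.74 to 0.0071; adjusted p = 0.228). Epb42, protein 4.2, which binds band 3 and ankyrin, was the gene of this list with the highest fold, 2.25 (adjusted p = 0.027), from 2, 4 and 5 reads in Ctrl to 12, 22 and 15 in cKO. It entered the test through its cKO libraries alone and Rhd through its Ctrl libraries alone, so that both had to differ and their calls carry little weight in the counts of this list and of the late erythroid list. Rhd, the Rh protein that associates with Rhag, fell (-1.96, adjusted p = 0.021), a call that was lost when any one of AI03, AI56, AI02, AI55 or AH74 was left out (-2.19 to -1.62).

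Genes of the late, hemoglobin-filling stage stayed near the level of the controls as a sum. The 19 matched genes of that list summed to 649 to 717 CPM in Ctrl and 688 to 709 CPM in cKO. Of 15 tested 3 fell and 2 rose, with a median log2 fold change of -0.04, and of the 2 that rose, Epb42 and Ube2l6, only Ube2l6 passed without any one of AI54, AI56, AI02, AI55 or AH74. Cpox, an enzyme of heme synthesis, fell (-0.94, adjusted p = 1.6e-05), Ube2l6 rose (0.49, adjusted p = 0.0021), and Rhd, which the membrane list also holds, was another of those with the smallest adjusted p. Alas2, the erythroid enzyme that starts heme synthesis and a defining gene of hemoglobin-making cells, had 0 to 4 reads in every library. The 7 embryonic and other globin genes searched (Hbb-y, Hbb-bh0, Hbb-bh1, Hbb-bh2, Hba-x, Hbq1a and Hbq1b) had 0 reads in all 6 libraries. Hemgn, an erythroid nuclear protein of the same list, was by contrast present at 30.5 to 40.7 CPM in Ctrl and 38.8 to 42.8 CPM in cKO. Slc4a1, Alas2 and the embryonic globins were thus at or near 0 in both groups, while Aqp1, Ermap and Ank1 had 490 to 861 reads in each Ctrl library.

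Of the genes of early erythroid progenitors, all 17 of the list were tested, 6 fell and 1 rose, with a median log2 fold change of -0.16; the 6 became 3 without AI02, and the 1 became 0 without AI02 or without AI55. The carbonic anhydrase Car1 fell furthest (-5.72, adjusted p = 5.6e-10), from 47.3 to 73.9 CPM in Ctrl to 0.804 to 1.46 CPM in cKO. Klf1, the Krüppel-like factor that activates adult beta globin and many membrane genes, fell by 4.21-fold (log2 fold change -2.07, adjusted p = 2.1e-05), beside 4.05-fold for Ank1 and an Hbb-bt value that did not pass the test. Gata1, the erythroid GATA factor, fell less (-0.64, adjusted p = 0.0035), as did Tfrc, the transferrin receptor (-0.43, adjusted p = 0.0085; -0.36 and not past the threshold without AI02). The summed CPM of this list was 2827 ± 167 in Ctrl and 2531 ± 98.4 in cKO.

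**Figure D3:**
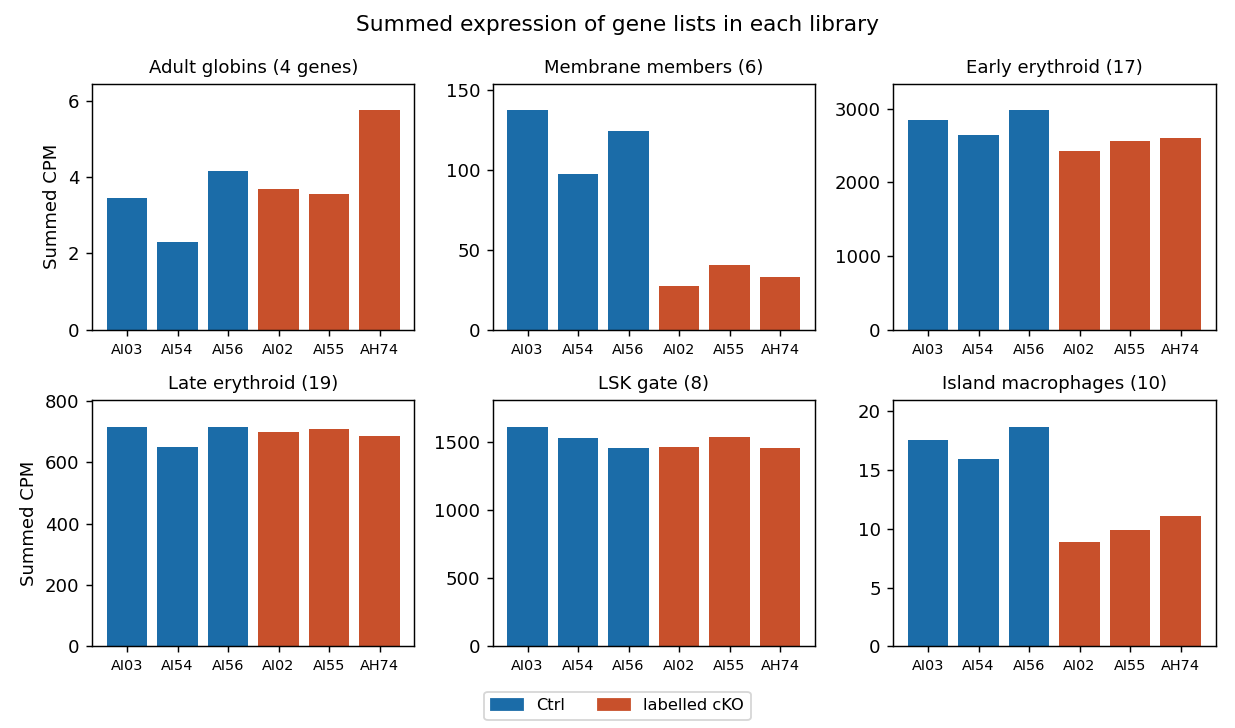
Summed CPM (vertical axes, each from 0) of 6 gene lists in each library, Ctrl in blue and libraries labelled cKO in orange. The 6 membrane genes fall from 97.1 to 137 CPM to 27.6 to 40.6 CPM and the macrophage list from 16.0 to 18.7 CPM to 8.845 to 11.1 CPM, while the globins, the late erythroid list and the gate genes overlap between the groups.

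Markers of other cells that could enter the sort were read beside these results. Of 10 genes of the macrophages that surround maturing erythroblasts, 9 were tested and 3 fell: Cd5l (-2.69, adjusted p = 0.0088), Vcam1 (-1.70, adjusted p = 0.013) and Cd163 (-1.62, adjusted p = 0.024). Adgre1 (F4/80) had a log2 fold change of 0.98 that did not pass (95% interval -0.10 to 2.06; adjusted p = 0.268). Cd5l entered the test through its Ctrl libraries alone, with 1, 7 and 3 reads in cKO, and Vcam1 and Cd163 had 2 of 3 cKO libraries over the filter's minimum. Vcam1 did not pass without AI56 (-1.64), and Cd163 passed only without AI56 when mice were left out in turn. The median log2 fold change of the 9 tested macrophage genes was -0.61, and the list's summed CPM was 16.0 to 18.7 in Ctrl and 8.845 to 11.1 in cKO, with no overlap. Of 7 endothelial and stromal genes 4 were tested and 3 fell: Cxcl12 (-2.08, adjusted p = 0.0054), Pecam1 (-0.33, adjusted p = 0.0054) and Col1a2 (-1.27, adjusted p = 0.011). The sums of the list were 126 to 138 CPM in Ctrl and 104 to 104.5 CPM in cKO. Most of these sums was Pecam1 alone, with 112 to 119 CPM in Ctrl and 90.3 to 93.6 CPM in cKO, so they say little about the other genes. The median log2 fold change of the 4 tested genes was -0.80. Col1a2 did not pass without AI02 (-1.10), Emcn had a log2 fold change of 0.34 that did not pass (95% interval -0.08 to 0.75; adjusted p = 0.329), and the endothelial gene Cdh5, with too few reads to test, had 0, 2 and 5 reads in Ctrl and 11, 4 and 8 in cKO. Of 8 neutrophil genes 3 were tested and 2 fell, S100a9 (-2.16, adjusted p = 0.030) and S100a8 (-1.96, adjusted p = 0.036), with a median of -1.96, sums of 6.66 to 10.4 against 3.37 to 7.24 CPM, and 0 past the threshold without AI56, AI02, AI55 or AH74 and 1 without AI03. S100a9 entered the test through its Ctrl libraries alone, and S100a8 had 1 cKO library over the filter's minimum. The defining neutrophil gene Camp had 0 or 1 read. The genes of these 3 lists that passed the test were all lower in cKO, but not every gene of the lists was. Cd5l and S100a9 had to differ to be tested, and the Ctrl libraries were enough to bring in Vcam1, Cd163 and S100a8. For those genes, as for Rhag, the filter favoured genes that are lower in cKO. Cxcl12, Pecam1 and Col1a2 had 3 Ctrl and 3 cKO libraries over the filter's minimum. Whether the cells of these 3 lists had a part in the member results was not tested.

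In the other lists at most 1 gene each passed the test. Of 10 megakaryocyte and platelet genes 8 were tested and 1 fell, Pf4 (-1.27, adjusted p = 2.3e-05), with a median of -0.30 and sums of 130 to 159 against 102 to 133 CPM. One of 5 B cell genes, Cd79b (0.16, adjusted p = 0.514), and 1 of 5 T cell genes, Cd4 (0.81, adjusted p = 0.134), could be tested, and neither passed. Among the 8 gate genes none fell by edgeR or DESeq2, 2 were lower at an unadjusted p under 0.05 (Cd48 and Flt3), and 1 rose, with a median of -0.01, and 1 fell without AI03 or without AI56.

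The library numbers in the header fall into 2 series, with AI03, AI02 and AI55 in the first and AI54, AI56 and AH74 in the second. What the series mark is not given in the sources used here. The differences in log2 CPM within the first and the second series were -3.08 and -3.49 for Ermap, -3.71 and -1.57 for Rhag, -2.35 and -1.77 for Ank1 and -1.41 and -1.23 for Aqp1. All 4 were lower in both. For Icam4 they were -0.94 and -0.56, and for Hbb-bt -0.03 and 1.24, the second of which rests on AH74.

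The nearest tested gene on either side of each tested globin or membrane gene, a set chosen after values had been seen, was read beside it. None of the 14 neighbours passed the threshold in either direction by edgeR or DESeq2, beside 7.67% and 8.01% of all genes tested. At such shares, the absence of a call among 14 genes says little about the surroundings. Of the 14, 1 had an unadjusted p under 0.05, and their log2 fold changes ran from -0.75 (Gm42418) to 0.59 (Hbb-bt). Ermap (-3.01) lay between Zfp691 (0.20) and Svbp (-0.24), both within 16 kb, and Ank1 (-2.02) between Kat6a (0.13, 161 kb away) and Gpat4 (-0.05, 128 kb). For Aqp1 (-1.30) they were Mindy4 (0.12) at 80.7 kb and Pde1c (0.38) at 877 kb. For Rhag (-2.94) they were 9130008F23Rik (0.31) at 52.1 kb and Gm42418 (-0.75, adjusted p = 0.157) at 978 kb, so that the distant genes say little about the surroundings of Aqp1 and Rhag. Icam4 (-0.71) stood between Icam1 (0.10), the widely expressed adhesion molecule of the same gene cluster, and Zglp1 (-0.61, adjusted p = 0.523). Hbb-bt and Hbb-bs are each other's neighbours, so that both are counted among the 14.

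**Figure D4:**
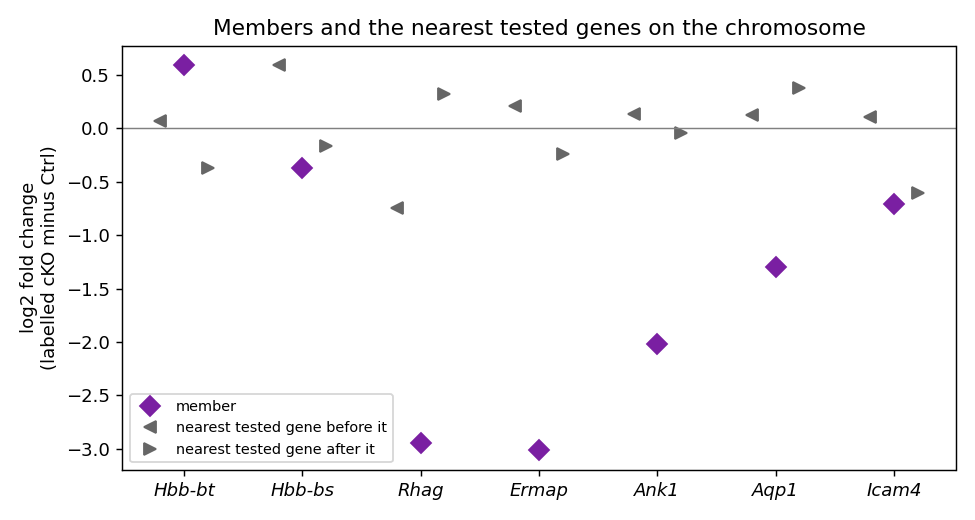
Log2 fold change of libraries labelled cKO against Ctrl (vertical axis) for the 7 tested globin and membrane genes (diamonds) and the nearest tested gene before and after each on the chromosome (triangles). The diamonds of Rhag, Ermap, Ank1 and Aqp1 lie at -2.94, -3.01, -2.02 and -1.30, below both triangles of each, which lie between -0.75 and 0.38.

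The genes whose pattern over the 6 libraries came closest to the summed membrane genes were Il1rl1, Parm1, Trib2, Slc45a3 and Ces2g, out of 14285 genes with a mean of at least 1 CPM. The measure was the root mean square distance of log2 CPM centred on each gene's mean, and it was 0.085 for Il1rl1, the receptor for interleukin-33, and 0.145 to 0.169 for the others. Their fitted log2 fold changes ran from -1.995 for Trib2 to -1.73 for Il1rl1. Closest to the summed globins were Dusp4 (0.062), Rab11fip3 (0.131), Zc2hc1a (0.140), Tecpr1 (0.149) and Smug1 (0.155), none of which passed the threshold between the groups.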

How the data were processed

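RNA from sorted LSK cells of 6 mice was amplified with a stranded total RNA kit for low input and sequenced as single reads of 75 bases. Per the study's methods and the submitters' processing notes, the authors used bcl2fastq 2.17.1.14, aligned to GRCm38/mm10 with GSNAP, and counted uniquely aligned reads on Ensembl genes with featureCounts 1.5.0; the deposited values are these raw read counts per gene, with no normalization.

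Gene IDs were named from GENCODE M21 (same build; 98.8% of IDs matched; of the listed genes only Ahsp had no match). Counts were filtered (edgeR filterByExpr), TMM-scaled and fitted with edgeR 4.0.16 in R 4.3.3 (glmQLFit, glmQLFTest; genotype only), with Benjamini-Hochberg adjustment over all genes tested and a threshold of 0.05. Scripts were tested on simulated data. DESeq2 1.42.0, its size factors, other filters, removal of 393 abundant transcripts, the library series as covariate, globin copies summed, a threshold of 0.01 and leaving out each mouse were the alternatives. A fold change carries its SE and 95% interval from the same fit. Members were named in full, Setd1b as the targeted gene, and in each of 11 lists the 4 tested genes with the smallest adjusted p; a few genes that this rule names are not reported here, and further genes are said to have been named after their values were seen. Members and lists were chosen with earlier results of these data known. Total counts of 13003573 to 21277519 per library set the precision, at which 3 reads are 0.141 to 0.231 CPM.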

Additional observations from a re-analysis of the deposited data

How the results depend on the processing

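Ermap, Ank1 and Aqp1 stayed lower and past the threshold in all 13 alternative fits, with log2 fold changes of -3.55 to -2.78, -2.24 to -1.85 and -1.44 to -1.16. Rhag did so in all 12 in which it could be tested (-3.56 to -2.51) and had too few reads for the filter of at least 10 counts in every library, so that the count of genes that fell was 3 there and 4 otherwise. Icam4 (-0.84 to -0.58) and Hbb-bt (0.17 to 0.78) passed the threshold in none of 13. Hbb-bs changed sign without Ctrl replicate 3 (0.94, from a range of -0.94 to 0.94 over the mice left out) and with the copies summed (0.37), as did Lcn2, a neutrophil gene, without Ctrl replicate 2 (0.031, from a range of -1.14 to 0.031). Removing abundant transcripts raised CPM levels (summed membrane genes to 143 in Ctrl and 40.4 in cKO) and no member's call changed with it. At an adjusted p under 0.01, 5 other membrane genes fell and 2 rose, 1 late erythroid and 0 early erythroid genes rose, and 1 macrophage and 0 neutrophil genes fell; with at least 10 counts in every library 0 macrophage and 0 neutrophil genes fell, and with no filter 2 gate genes fell. Leaving out 1 mouse at a time, the counts that fell ranged from 5 to 8 for other membrane genes, 3 to 6 for early erythroid, 0 to 2 for neutrophil and 0 to 1 for gate genes, and those that rose from 2 to 3 for other membrane genes, 1 to 2 for late erythroid and 0 to 1 for early erythroid genes. The causes of these shifts were not tested. No paired analysis was possible because the labels give the mice no replicate numbers and tie no Ctrl mouse to a cKO mouse; the numbers used here only name samples. Depth limits the alpha globins and Slc4a1, for which a difference was not detectable.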

Other observations

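Trim10, a gene of the late erythroid list, was at 0 or 1 read in 5 libraries and at 9 in AH74, the mouse with the most globin reads.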
